A study of Mus musculus with 4 samples.

Results

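The genes described here are germline and testis genes: genes of families best known from male germ cells or the cells that nurse them, many of which adult liver normally keeps silent. They were chosen by name, as every probe set that the array annotation assigns to exactly 1 gene whose symbol belongs to the *Tex*, *Spata*, *Spaca*, *Tdrd*, *Mage*, *Syce*, *Sycp*, *Rhox*, *Piwil*, *Tssk*, *Odf*, *Zpbp*, *Hormad*, *Sohlh*, *Xlr*, protamine or transition protein families, or is 1 of a set of single germ cell genes such as *Dazl*, *Ddx4*, *Mael*, *Dmc1* and *Hsf2bp*. The rule gave 190 probe sets for 130 genes, out of 34945 single-gene probe sets for 18193 genes on the array. A further 8 probe sets carried such a symbol together with other genes and were not used for any gene. The annotation placed 16 of the 130 genes on the X chromosome.

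Germline genes are known to be held silent in somatic cells by layers of repression. DNA methylation at CpG dinucleotides in their promoters, the polycomb complex PRC1.6 that E2F6 and the pair MGA and MAX bring to DNA, and methylation of histone H3 at lysine 9 are the best known. G9a, encoded by *Ehmt2*, works with GLP, encoded by *Ehmt1*, as the main writer of H3K9 dimethylation in euchromatin, and in mouse embryonic stem cells its loss is known to release *Mage-a* genes.

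Gene expression was measured on 2 G9aKO and 2 WT livers, 1 Affymetrix mouse genome GeneChip each, from the non-tumorous tissue of male mice of 30 weeks. The G9aKO mice (Alb-Cre; G9aflox/flox, called G9aΔHep in the study) carried floxed *G9a* alleles that the albumin promoter's Cre removes in hepatocytes, so that other liver cells kept the gene. The labels describe the WT mice by genotype only. Mice of both genotypes were given diethylnitrosamine (DEN), a DNA-damaging carcinogen, at 25 mg/kg on day 15 of life, and then 22 weekly injections of carbon tetrachloride (CCl4), a liver toxin, at 0.5 mL/kg. *Ehmt2* itself had signals of 174 and 164 on the G9aKO arrays, both Absent, and 640 and 492 on the WT arrays, both Present (log2 difference -1.73, SE 0.23, adjusted p = 0.063). Hepatocyte markers were Present on all 4 arrays for 5 of 5 genes. An exact permutation test of 2 against 2 values cannot give a two-sided p below 0.333, so that every test below comes from the limma fit over all genes, whose p-values measure the spread between these 4 livers only.

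Of the 130 germline and testis genes, *Spaca1* and *Rhox5* were higher in G9aKO liver past the adjusted threshold and none was lower. Their promoters are shown because these genes carry the result, in the window from 250 bases before to 50 bases after the RefSeq transcription start (GRCm38.p6), with CpG dinucleotides in capitals. That of *Spaca1* lies on the minus strand at chr4:34050016-34050315 and that of *Rhox5* on the plus strand at chrX:37754358-37754657.
Spaca1: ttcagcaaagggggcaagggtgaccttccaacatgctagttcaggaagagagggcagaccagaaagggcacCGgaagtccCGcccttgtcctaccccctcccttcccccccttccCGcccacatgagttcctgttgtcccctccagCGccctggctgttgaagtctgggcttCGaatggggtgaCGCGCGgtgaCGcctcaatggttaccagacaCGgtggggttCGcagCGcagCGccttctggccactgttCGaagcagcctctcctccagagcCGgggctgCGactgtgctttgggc
Rhox5: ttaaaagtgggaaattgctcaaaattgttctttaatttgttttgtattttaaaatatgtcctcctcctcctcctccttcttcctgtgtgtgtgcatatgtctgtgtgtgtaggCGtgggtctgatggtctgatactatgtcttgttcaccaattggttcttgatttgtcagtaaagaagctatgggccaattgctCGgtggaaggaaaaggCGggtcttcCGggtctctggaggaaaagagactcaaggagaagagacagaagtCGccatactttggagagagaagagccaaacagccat
The *Spaca1* window held 16 CpG dinucleotides and 1 exact match to GGCGGGAA, the element that E2F6 binds, on the opposite strand at position -139 from the start. The *Rhox5* window held 5 CpG dinucleotides and neither this element nor CACGTG, the E-box that MGA and MAX bind. The median over 27025 genes in the RefSeq table was 8 CpG dinucleotides.

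*Spaca1* (chr4:34024872-34050067) encodes a membrane protein of the acrosome, the vesicle on the sperm head that opens at fertilization. Its MAS5 signal, a background-corrected intensity scaled to the same trimmed mean on each array, was 1031 and 833 on the G9aKO arrays, against 33.3 and 8.62 on the WT arrays. Both G9aKO values lay far above both WT values, and the gene was called Present, meaning detected, on both G9aKO arrays and Absent on both WT arrays. The means were 932 ± 140 in G9aKO liver and 21.0 ± 17.5 in WT liver (SD, n = 2 each). On means of log2 signal *Spaca1* was 37.9-fold higher in G9aKO liver. Each WT value was taken as the lowest Present signal of its array or its own signal there, whichever was higher. The WT signals lay in the range of Absent probe sets (95% of them up to 170 and 175), so that this fold is not a firm lower bound. The log2 difference was 5.77 (SE 0.65, adjusted p = 0.0361), although without G9aKO replicate 1 the adjusted p was 0.0874. The gene entered the test only through its Present calls in G9aKO liver, where it is high, and with no detection filter its adjusted p was 0.0573. Its Present calls rested on detection p-values of 0.0303 and 0.0376 in G9aKO liver, close to the caller's limit. The array held 1 probe set for this gene.

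*Rhox5* (chrX:37754608-37808878) encodes a homeobox transcription factor, known from Sertoli cells of the testis and from the placenta. The signals were 995 and 809 on the G9aKO arrays, against 116 and 148 on the WT arrays. Both G9aKO livers were high and the WT livers were low but detected, since the gene was Present on all 4 arrays. The means were 902 ± 132 in G9aKO liver and 132 ± 23.2 in WT liver (SD, n = 2 each), a 6.85-fold difference between the means of log2 signal. Although called Present, the WT signals lay in the range of Absent probe sets (95% of them up to 170 and 175), so that this fold is not firm. The log2 difference was 2.78 (SE 0.24, adjusted p = 0.0262). Without G9aKO replicate 1, WT replicate 1 or WT replicate 2 the adjusted p was 0.0538, 0.115 and 0.074, at log2 differences of 2.63, 2.60 and 2.96. Detection p-values were 0.000244 on both G9aKO arrays, and 0.0376 and 0.0303 on the WT arrays.

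These 2 genes were 6.06% of the 33 germline and testis genes tested, beside 0.319% of all 10350 genes tested that were called higher in G9aKO liver. The share is a description only, since *Spaca1* and *Hsf5* entered the 33 through G9aKO liver alone and *Hsf2bp* and *Spata3* through WT liver alone. With no detection filter 1 of the 130 genes was called higher, *Rhox5*, beside 0.0605% of all 18193 genes. Of the 33 genes 0 were called lower by limma, beside 0.0676% of all genes tested called lower at the same adjusted threshold. At an unadjusted limma p under 0.05, 2 of the 33 were higher and 1 lower, *Hsf2bp*, which entered the test through WT liver alone. The share of all genes at that unadjusted threshold was not counted, so that these counts are a description only. With no mean-variance trend in the fit 0 of all genes passed the adjusted threshold, *Spaca1* and *Rhox5* included. The other detected genes lay on both sides of 0. Of the 33, 17 had a log2 difference above 0 and 16 below, and the median was 0.01, beside 0.02 over all genes tested. For 29 of the 33 the log2 difference was within 0.6 of 0. Signals of the 2 genotypes did not overlap for 6 genes that were higher in G9aKO liver, or 18.2%, against a background of 22.3%, and for 7 genes that were lower, or 21.2%, against 19.3%.

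**Figure D1:**
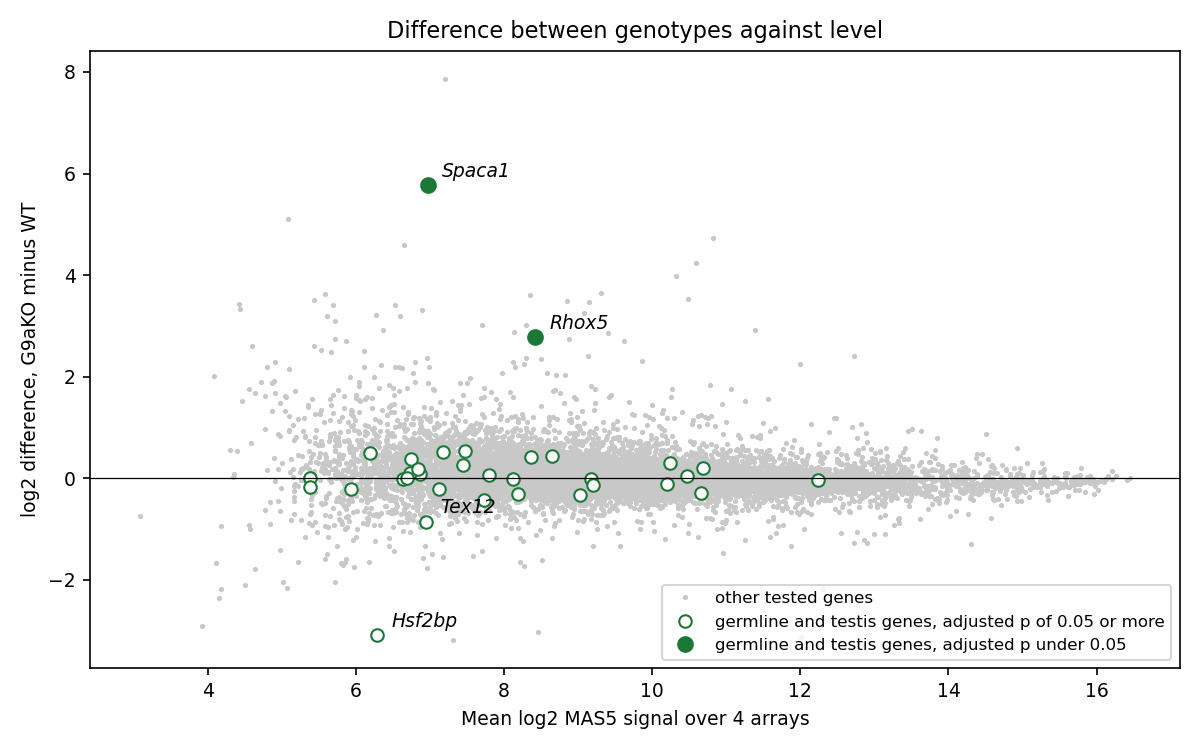
Each dot is 1 of 10350 tested genes, placed by its mean log2 MAS5 signal over the 4 arrays (x axis) and its log2 difference, G9aKO minus WT (y axis). Circles are the 33 germline and testis genes tested, filled where the adjusted p is under 0.05: *Spaca1* at 5.77 and *Rhox5* at 2.78 stand above the rest, *Hsf2bp* at -3.10 lies below, and the other 30 lie between -0.85 and 0.54.

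Most of the 130 genes were not detected in either genotype. For 89 of them no probe set was Present on any array, and 138 of the 190 probe sets were never Present. Counted at any of its probe sets, a germline or testis gene was Present for 31 and 30 genes on the G9aKO arrays, against 26 and 31 on the WT arrays, so that the genotypes overlapped in how many they detected. The 97 genes that could not be tested had signals of 0.332 to 162, all within the range where 95% of Absent probe sets lie (up to 177 and 181 on the G9aKO arrays, and up to 170 and 175 on the WT arrays). Among these 97, the genotypes did not overlap for 22 that were higher in G9aKO liver, or 22.7%, and 12 that were lower, or 12.4%. The same shares over all 7843 genes left out of the test were 18.1% and 15.8%. No fold is given for any of them because none was Present on more than 1 array.

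**Figure D2:**
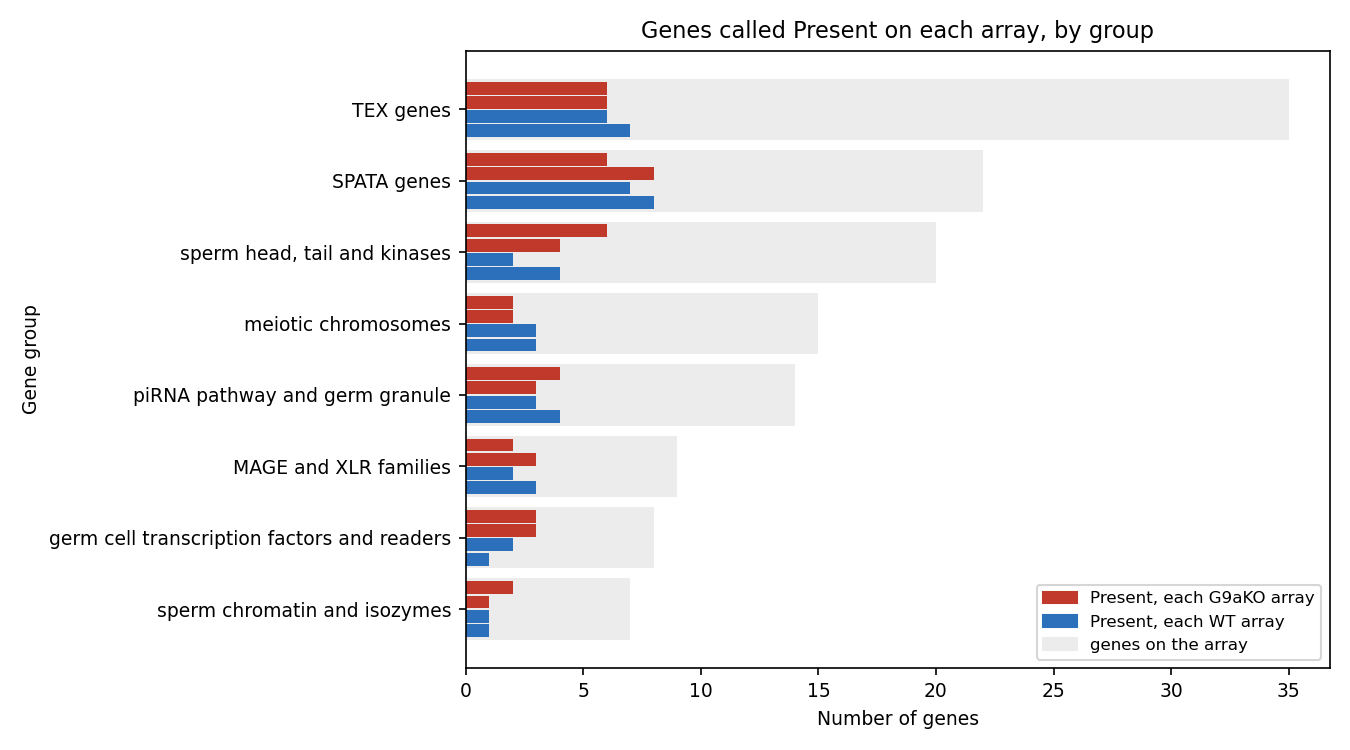
The x axis counts genes and the y axis gives the 8 groups into which the 130 genes fall by role. Coloured bars are genes with a Present probe set on each G9aKO array (upper, red) and each WT array (lower, blue), and the pale bar is the number on the array: in every group at least 5 genes and in the *Tex* group 27 of 35 had no Present probe set on any array.

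The transcription factors and chromatin readers of germ cells numbered 8 genes, of which 5 were never Present. The *Rhox* cluster on the X chromosome holds reproductive homeobox genes side by side, and 3 further members were on the array. *Rhox6* had signals of 37.9 and 43.3 in G9aKO liver, against 9.10 and 10.2 in WT liver. *Rhox9* had 58.8 and 82.4 in G9aKO liver, against 9.67 and 71.5 in WT liver, and *Rhox13* had 2.80 and 4.81, against 14.3 and 3.54. All 3 were Absent on all 4 arrays, so that *Rhox5* was the member of its cluster with a detected level. *Hsf5*, a heat shock factor family member required in spermatocytes, was Present on both G9aKO arrays and Absent on both WT arrays. Its signals were 43.7 and 39.9 in G9aKO liver, against 39.8 and 43.0 in WT liver. The signals overlapped despite the opposite calls, and the log2 difference was 0.01 (SE 0.59, adjusted p = 0.995). *Brdt*, a testis bromodomain protein that helps to compact the spermatid genome, had a log2 difference of 0.49 (SE 0.50, adjusted p = 0.78) with overlapping signals.

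Genes of meiotic chromosomes, which pair and recombine homologues, numbered 15, and 11 of them were never Present. *Hsf2bp*, which binds HSF2 and the recombination factor BRCA2, lies on chromosome 17, and its promoter window is shown for comparison with the pair above. It lies on the minus strand at chr17:32034459-32034758.
Hsf2bp: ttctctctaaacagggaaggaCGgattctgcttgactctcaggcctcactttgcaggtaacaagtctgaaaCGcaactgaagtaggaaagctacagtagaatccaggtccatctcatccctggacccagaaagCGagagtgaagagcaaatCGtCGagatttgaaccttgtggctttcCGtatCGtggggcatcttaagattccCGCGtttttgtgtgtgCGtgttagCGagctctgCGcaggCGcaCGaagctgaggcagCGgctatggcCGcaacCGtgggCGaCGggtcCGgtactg
It held 20 CpG dinucleotides and neither motif. *Hsf2bp* had signals of 52.1 and 13.8 on the G9aKO arrays, both Absent, against 254 and 207 on the WT arrays, both Present. The 2 WT livers were the high ones, and the genotypes did not overlap. The means were 32.9 ± 27.1 in G9aKO liver and 230 ± 33.5 in WT liver (SD, n = 2 each). On means of log2 signal, with the same floor as for *Spaca1*, the gene was 7.94-fold lower in G9aKO liver. Its G9aKO signals lay in the range of Absent probe sets (95% of them up to 177 and 181), so that this fold is not a firm lower bound either. The log2 difference of -3.10 (SE 0.69) did not pass the test (adjusted p = 0.212). At a second probe set the signals were 4.22 and 67.6 in G9aKO liver, against 15.2 and 6.31 in WT liver, and all 4 were Absent.

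The axis and the bridge of the synaptonemal complex, the scaffold between paired chromosomes, were detected in part, and none of their genes passed the test. *Sycp3*, of the axis, had signals of 63.3 and 167 in G9aKO liver, against 78.3 and 136 in WT liver, so that the genotypes overlapped fully (log2 difference -0.01, SE 0.57, adjusted p = 0.997). *Syce2*, of the central element, had 301 and 259 in G9aKO liver, against 315 and 250 in WT liver, and overlapped as well (log2 difference -0.01, SE 0.24, adjusted p = 0.991). *Tex12*, the partner of SYCE2 in that element, had 94.9 and 88.6 in G9aKO liver, against 277 and 99.4 in WT liver. Only WT replicate 1 was high, and the log2 difference of -0.85 (SE 0.53, adjusted p = 0.644) was -0.12 without it. *Dmc1*, the meiotic recombinase, was Absent on all arrays, at 15.2 and 11.5 in G9aKO liver and 17.3 and 18.9 in WT liver.

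**Figure D3:**
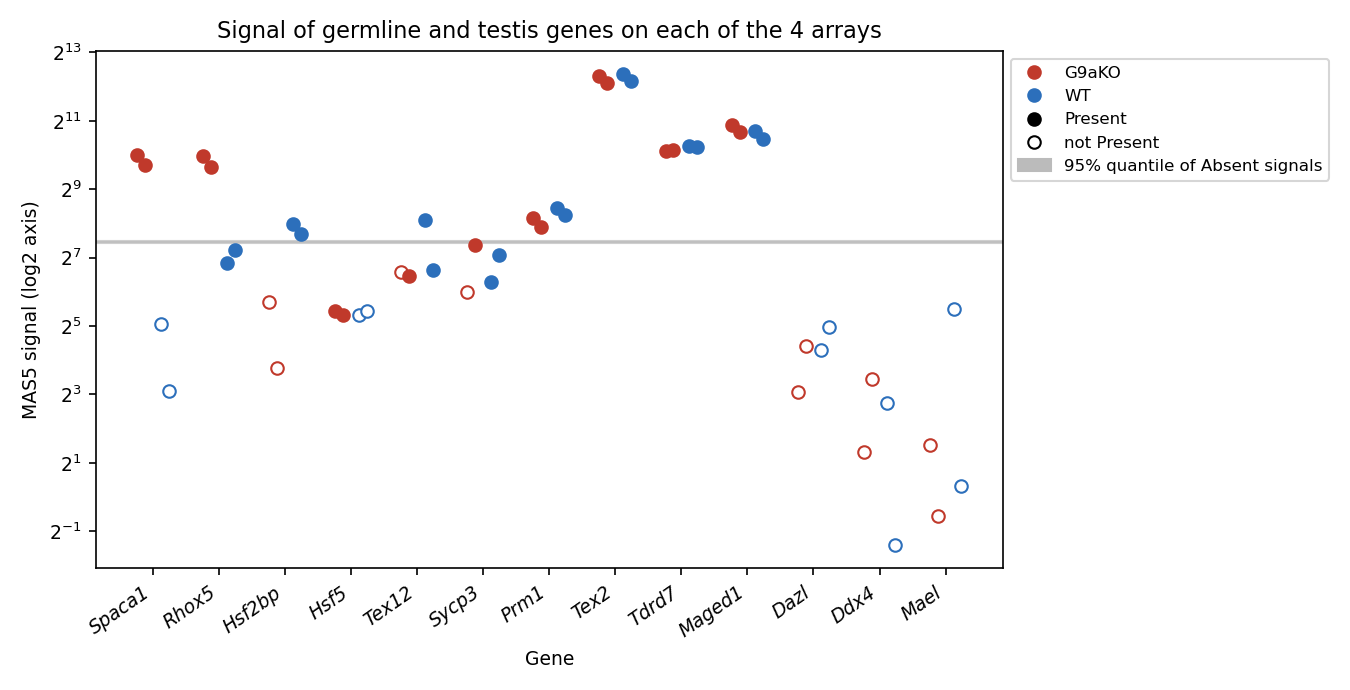
The y axis gives the MAS5 signal on a log2 axis for 13 germline and testis genes (x axis), 1 point per array, with G9aKO in red to the left of WT in blue. Filled points were called Present, and the grey band marks the 95% quantiles of Absent signals (170 to 181): both G9aKO points lie above both WT points for *Spaca1* and *Rhox5*, below them for *Hsf2bp*, and no *Dazl*, *Ddx4* or *Mael* point was Present.

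The piRNA pathway and the germ granule, which silence transposons and hold RNAs in germ cells, gave 14 genes. Of these, 10 were never Present, among them *Ddx4*, a germ granule RNA helicase, *Dazl*, an RNA-binding protein of germ cells, and *Mael*, a piRNA factor. *Ddx4* had signals of 2.47 and 11.0 in G9aKO liver, against 6.71 and 0.379 in WT liver. *Dazl* had 8.40 and 21.3 in G9aKO liver, against 19.7 and 31.3 in WT liver, and *Mael* had 2.90 and 0.685, against 44.8 and 1.25. Signals of these 3 genes overlapped between the genotypes and were undetected in both. The promoter windows of *Mael* (minus strand, chr1:166238695-166238994) and *Dazl* (minus strand, chr17:50293571-50293870) are shown as those of undetected genes with CpG-rich starts.
Mael: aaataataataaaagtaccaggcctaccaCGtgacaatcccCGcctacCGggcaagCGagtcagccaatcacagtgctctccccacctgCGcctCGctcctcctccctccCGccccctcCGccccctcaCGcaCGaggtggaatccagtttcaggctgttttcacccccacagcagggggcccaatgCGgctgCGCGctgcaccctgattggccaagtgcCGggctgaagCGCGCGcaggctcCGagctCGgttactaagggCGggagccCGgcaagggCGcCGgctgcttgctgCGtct
Dazl: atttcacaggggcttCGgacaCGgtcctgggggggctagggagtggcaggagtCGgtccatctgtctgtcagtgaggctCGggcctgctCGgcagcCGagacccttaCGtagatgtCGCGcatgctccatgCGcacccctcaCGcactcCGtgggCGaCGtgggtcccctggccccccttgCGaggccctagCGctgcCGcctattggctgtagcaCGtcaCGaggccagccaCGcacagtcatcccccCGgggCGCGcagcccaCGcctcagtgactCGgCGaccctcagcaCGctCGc
They held 24 and 28 CpG dinucleotides, and that of *Mael* held 1 E-box at position -223. The detected genes of the group were *Tdrd3*, *Tdrd7* and *Asz1*. *Tdrd3*, a reader of methylated arginine that many cells express, had signals of 427 and 511 in G9aKO liver, against 345 and 351 in WT liver. The genotypes did not overlap, with both G9aKO livers higher, but the log2 difference of 0.43 (SE 0.20) did not pass the test (adjusted p = 0.543). *Tdrd7*, a germ granule protein also known from the lens, had 1121 and 1132 in G9aKO liver, against 1223 and 1216 in WT liver (log2 difference -0.11, SE 0.14, adjusted p = 0.82).

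Genes of the sperm head and tail and the testis-specific kinases numbered 20, of which 13 were never Present and *Spaca1* alone passed the test. The other 5 *Spaca* genes on the array, *Spaca3*, *Spaca4*, *Spaca6*, *Spaca7* and *Spaca9*, could not be tested. *Odf2*, a sperm tail fibre protein that also sits at centrosomes of other cells, had signals of 312 and 466 in G9aKO liver, against 304 and 267 in WT liver. These values did not overlap but nearly touched (log2 difference 0.42, SE 0.26, adjusted p = 0.648). *Odf3b* had 562 and 586 in G9aKO liver, against 465 and 726 in WT liver, and overlapped (log2 difference -0.02, SE 0.25, adjusted p = 0.987).

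Protamines, transition proteins and the sperm isozymes of glycolysis gave 7 genes, and 5 of them were never Present. Protamines replace histones in the sperm nucleus, and transition proteins take part in that exchange. *Prm1* had signals of 287 and 237 in G9aKO liver, against 351 and 301 in WT liver, all Present. Both G9aKO values were lower, but the log2 difference of -0.32 (SE 0.23) did not pass the test (adjusted p = 0.698), and the 2 other *Prm1* probe sets were Absent on all 4 arrays. *Prm2* had 27.8 and 84.2 in G9aKO liver, against 46.9 and 52.2 in WT liver, and *Tnp2* had 6.03 and 14.0, against 7.09 and 11.4. *Tnp1* had 36.5 and 42.8 in G9aKO liver, against 32.6 and 18.4 in WT liver, with 1 Present call, on G9aKO array 1. None of these 3 could be tested.

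The *Tex* genes, named for expression in testis rather than for a shared function, were the largest group with 35 genes, and 27 of them were never Present. The 6 tested included widely expressed genes. *Tex2*, a lipid-binding protein of the endoplasmic reticulum, had signals of 5106 and 4442 in G9aKO liver, against 5256 and 4594 in WT liver (log2 difference -0.05, SE 0.13, adjusted p = 0.935). *Tex264*, a receptor for autophagy of the endoplasmic reticulum, had 1446 and 1467 in G9aKO liver, against 1673 and 1918 in WT liver (log2 difference -0.30, SE 0.14, adjusted p = 0.549). *Tex30* had 480 and 454 in G9aKO liver, against 585 and 585 in WT liver (log2 difference -0.33, SE 0.17, adjusted p = 0.581). Both genes were lower in both G9aKO livers without passing the test. *Tex10*, known from ribosome biogenesis, was the opposite case, with 1357 and 1312 in G9aKO liver, against 1135 and 1045 in WT liver (log2 difference 0.29, SE 0.14, adjusted p = 0.558). *Tex19.1*, which guards germ cells against retrotransposons, was not Present on any array, at 22.2 and 42.9 in G9aKO liver and 4.76 and 36.3 in WT liver.

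The *Spata* genes numbered 22, with 9 tested, 12 never Present and 0 called. Log2 differences of the 9 ran from -0.44 to 0.54 with a median of 0.08. *Spata13*, an exchange factor for small GTPases, had signals of 511 and 613 in G9aKO liver, against 670 and 566 in WT liver (log2 difference -0.14, SE 0.19, adjusted p = 0.846). *Spata6*, a protein of the sperm neck, had 201 and 150 in G9aKO liver, against 127 and 117 in WT liver (log2 difference 0.51, SE 0.31, adjusted p = 0.639). Both G9aKO livers were higher for *Spata6*, but it was Present on only 1 array of each genotype.

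The *Mage* and *Xlr* families gave 9 genes, of which 6 were never Present and 0 were called. *Mage* genes encode partners of ubiquitin ligases, and the *Maged* genes among them are expressed beyond the germline. *Maged1* had signals of 1893 and 1646 in G9aKO liver, against 1677 and 1406 in WT liver, and overlapped (log2 difference 0.20, SE 0.16, adjusted p = 0.716). *Maged2* had 122 and 138 in G9aKO liver, against 139 and 164 in WT liver (log2 difference -0.21, SE 0.30, adjusted p = 0.849). *Magea4* and *Magea6* were Absent on all 4 arrays. *Magea5* was Present on 1 array of each genotype, at 33.8 and 45.0 in G9aKO liver and 41.2 and 47.4 in WT liver, and these overlapped (log2 difference -0.18, SE 0.60, adjusted p = 0.943).

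Detection that was confined to 1 genotype was also counted, since it covers genes that the test leaves out. Of the 130 genes, 2 were Present on both G9aKO arrays and neither WT array, *Spaca1* and *Hsf5*, or 1.54%, beside 1.13% of all 18193 genes. In the other direction *Hsf2bp* was the 1 gene, or 0.769%, beside 0.517% of all genes. At a stricter detection p under 0.01 these genes changed. *Rhox5* then was the 1 gene detected on both G9aKO arrays and neither WT array, and *Hsf2bp* and *Tex12* were the 2 detected on both WT arrays and neither G9aKO array, beside 1.05% and 0.308% of all genes.

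The genes around *Spaca1*, *Rhox5* and *Hsf2bp* were examined because H3K9 dimethylation is known to cover broad domains. Within 1 megabase of *Spaca1* 11 genes were tested and 0 called, with log2 differences of -0.19 to 0.39 and a median of 0.09. The nearest, *Akirin2*, lay 501 kb away and had a log2 difference of 0.04, so that no gene closer to *Spaca1* was tested. Within 1 megabase of *Rhox5* 16 genes were tested and 0 called, with a range of -0.45 to 0.76 and a median of 0.07. The nearest, *Zbtb33*, lay 381 kb away and had a log2 difference of 0.30. Within 1 megabase of *Hsf2bp* 24 genes were tested and 0 called, with a median of 0.11. *Tff3*, a secreted trefoil peptide of mucosal surfaces at -815 kb, towards lower coordinates, had a log2 difference of 3.99 (adjusted p = 0.0718), and the closest tested gene, *Rrp1b*, had -0.02. Of all genes tested 0.319% were called higher and 0.0676% lower, so that 0 calls among so few neighbours are a description only. Neighbours higher in G9aKO liver without overlap were 9.09% for *Spaca1*, 18.75% for *Rhox5* and 25% for *Hsf2bp*, against 22.3% of all genes tested. Those lower were 18.2%, 18.75% and 8.33%, against 19.3%.

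**Figure D4:**
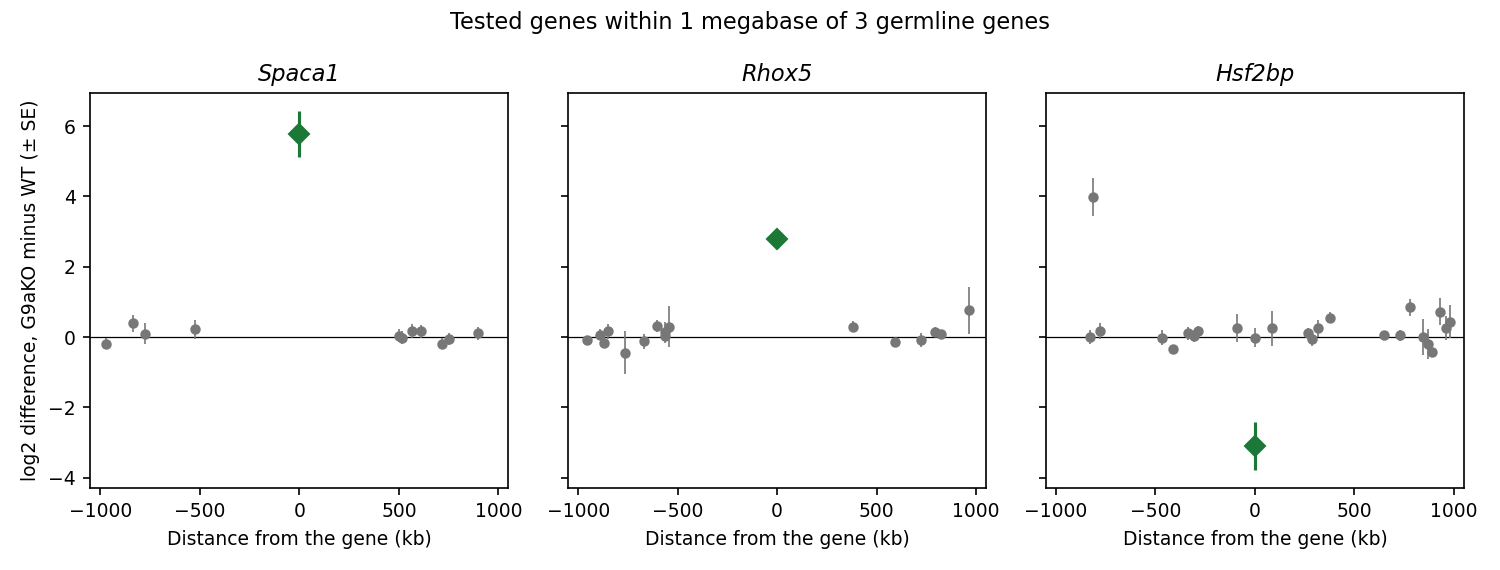
Each grey point is a tested gene within 1 megabase, placed by its distance in kb from the named gene (x axis) with its log2 difference, G9aKO minus WT, and SE (y axis). The green diamond is *Spaca1* (5.77), *Rhox5* (2.78) or *Hsf2bp* (-3.10), and 0 of the 11, 16 and 24 neighbours passed the adjusted threshold. Of all genes tested 0.319% passed it as higher and 0.0676% as lower.

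*Hsf2bp* (chr17:31944769-32034895) lies 2.86 megabases from *Ehmt2* on the same chromosome. Any effect of the targeted allele on genes linked to it cannot be told apart from loss of G9a in these samples. Between *Hsf2bp* and *Ehmt2* 64 genes were tested, with a median log2 difference of -0.04. Limma called 0 of the 64, beside 0.319% of all genes tested called higher and 0.0676% lower. Of the 64, 10 were higher in G9aKO liver without overlap, or 15.6%, and 17 lower, or 26.6%, against the 22.3% and 19.3% of all genes tested. *Dazl*, *Pgk2* and *Spaca6* are the other 3 of the 130 genes on chromosome 17, and none was Present.

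The promoter windows of the germline and testis genes varied with their role. A window was found for 115 of the 130 genes, and where a gene had several, which was so for 23, the one with the most CpG dinucleotides was counted and a motif was scored in any of them. The median was 13 CpG dinucleotides, beside 8 over all genes in the RefSeq table and 22 over genes tested on these arrays. All 15 genes of meiotic chromosomes and all 13 piRNA and germ granule genes with a window had at least 10 CpG dinucleotides, with medians of 18 and 25, while 0 of the 7 genes of sperm chromatin and isozymes did. GGCGGGAA was found on either strand for 10 of the 115 genes, or 8.70%, beside 2.52% of all genes. Of these 10, *Spaca1*, *Hsf5*, *Tex12*, *Syce2* and *Spata5* were tested and *Spaca1* was called. CACGTG was found for 18, or 15.7%, beside 8.09% of all genes, and its share was 40.0% in genes of meiotic chromosomes and 46.2% in piRNA and germ granule genes. These are matches of letters and not measured sites of binding. The *Rhox5* window, with 5 CpG dinucleotides, and the *Spaca1* window, with 16, lay on either side of the median of the 115.

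**Figure D5:**
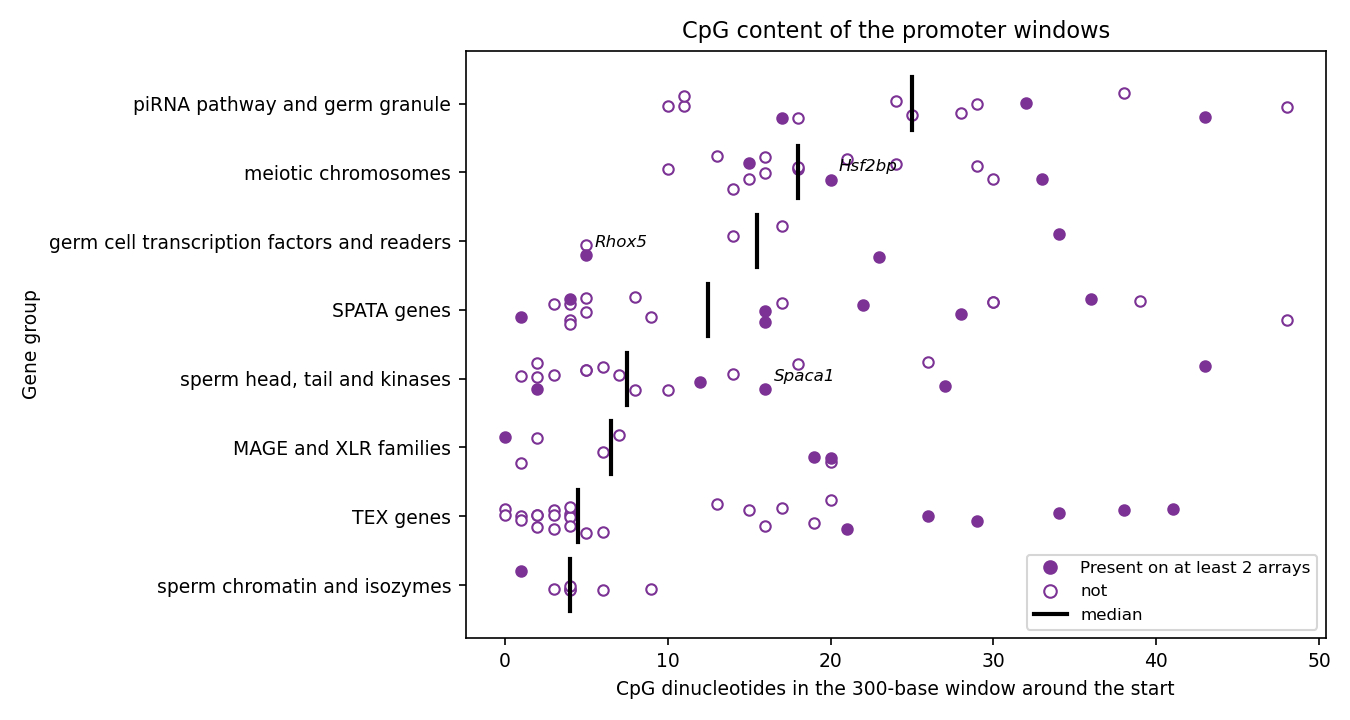
The x axis gives the number of CpG dinucleotides in the 300-base window around the start and the y axis the 8 groups, ordered by median (black bar), with vertical scatter within a group for legibility. Each circle is 1 of 115 genes, filled where the gene was Present on at least 2 arrays: medians run from 25 for piRNA and germ granule genes to 4 for genes of sperm chromatin and isozymes.

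Germline genes outside these families and the machinery that silences them were read from the same fit. Of 45 further germline genes on the array, 36 were never Present, 4 were tested and 0 were called. *Psma8*, the testis-specific proteasome subunit, had signals of 298 and 288 in G9aKO liver, against 8.39 and 123 in WT liver. It was Present in both G9aKO livers and neither WT liver, and the spread between the WT arrays was wide (log2 difference 3.19, SE 1.17, adjusted p = 0.46). *Meiob* was lower without overlap, at 267 and 174 in G9aKO liver and 469 and 285 in WT liver (log2 difference -0.76, SE 0.34, adjusted p = 0.536). *Boll* was higher without overlap (log2 difference 0.63, adjusted p = 0.704), and *Tsga10* overlapped (log2 difference 0.03, adjusted p = 0.988). Of 29 tested genes of the germline silencing machinery 0 were called, with 14 above 0, 15 below and a median log2 difference of -0.01. The 29 include *Ehmt2*, the deleted gene, which at -1.73 did not pass either (adjusted p = 0.063). Of all genes tested 0.319% were called higher and 0.0676% lower, so that 0 calls in these lists are a description only. *Ehmt1* had a log2 difference of 0.05 (adjusted p = 0.935), *Dnmt1*, the maintenance DNA methyltransferase, -0.01 (adjusted p = 0.994), *E2f6* -0.45 (adjusted p = 0.627) and *Setdb1*, another H3K9 methyltransferase, 0.34 (adjusted p = 0.68). *Dnmt3b*, a de novo DNA methyltransferase, was Present on the WT arrays only, at 86.2 and 59.9 in G9aKO liver and 123 and 101 in WT liver (log2 difference -0.63, adjusted p = 0.656).

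Markers of testis cells were mostly undetected. Of 6 markers of germ cells after meiosis 4 were never Present, and the same held for 4 of 6 markers of germ cells before and in meiosis, counts that include genes described above such as *Prm1*, *Tnp2*, *Ddx4* and *Dmc1*. Among the markers outside the 130 genes, *Smcp*, *Akap4* and *Stra8* were never Present, while *Zbtb16*, which other tissues express too, was Present on all 4 arrays (log2 difference 0.26, adjusted p = 0.666). *Amh*, *Inha* and *Sox8*, markers of Sertoli and Leydig cells, were Absent on all arrays, while *Star* was Present on all 4 (log2 difference -0.07, adjusted p = 0.972) and *Rhox5* itself belongs to that list. Of the markers of other liver cells 0 were called. All 7 markers of Kupffer cells and macrophages had log2 differences above 0, with a median of 0.46. Of the 7, 3 were higher in G9aKO liver without overlap and 0 lower, against a background of 22.3% and 19.3% of all genes tested. Their summed signals of 49923 and 32044 in G9aKO liver, against 20598 and 32490 in WT liver, overlapped. The 5 tested markers of stellate cells and fibroblasts were above 0 too, with a median of 0.55. Of the 5, 3 were higher in G9aKO liver without overlap, against a background of 22.3% of all genes tested. Summed signals of the 6 on the array were 5072 and 3227 in G9aKO liver, against 3003 and 3187 in WT liver. These sums did not overlap but nearly touched, with G9aKO replicate 1 the highest. Summed signals of 4 cholangiocyte markers were 728 and 599 in G9aKO liver, against 407 and 381 in WT liver, without overlap. *Krt19*, *Krt7* and *Epcam* among them were each Present on 1 G9aKO array and neither WT array, and could not be tested. Most signals of these genes lay in the range of Absent probe sets, so that the order of the sums is not firm. *Sox9*, the 1 tested, had overlapping signals and a log2 difference of 0.71 (adjusted p = 0.668). Among endothelial markers *Lyve1* had signals of 759 and 550 in G9aKO liver, against 1025 and 1639 in WT liver, without overlap (adjusted p = 0.32). *Pecam1* went the other way without overlap, at 285 and 238 in G9aKO liver and 207 and 160 in WT liver, and could not be tested. *Stab2*, *Clec4g* and *Kdr* overlapped between the genotypes. Summed signals of the endothelial, T and NK cell, B and plasma cell and neutrophil lists overlapped between the genotypes. Their part in the results for *Spaca1*, *Rhox5* and *Hsf2bp* was not tested. In whole liver, more cells of a type and more RNA per cell cannot be told apart.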

How the data were processed

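Total RNA of 4 livers was hybridised to 1 Affymetrix mouse genome GeneChip each. The deposited signal is a linear intensity that the authors made with MAS5 (version not given in the sources used here), and its 2% trimmed mean was 500.0 on every array. The deposited detection p-value and call (Present, Marginal or Absent) also came from the authors' software. Depth does not apply to arrays, and their number, 2 a genotype, limits the precision.

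Log2 signals without a pseudocount were compared, G9aKO minus WT, with limma 3.58.1 in R 4.3.3 (lmFit, then eBayes that models variance along mean signal), at 2 residual and 4.02 prior degrees of freedom. A gene was tested at its brightest single-gene probe set Present on at least 2 arrays, which gave 10350 genes, and p-values were adjusted over all of them by Benjamini-Hochberg with a threshold of 0.05. The fit was run on simulated data in which spread depended on mean signal alone, so that this run does not test that assumption for these arrays. Of 45101 probe sets, 64 controls, 932 with several genes and 9160 with none were left out. All 130 members matched RefSeq by Entrez identifier. Promoter windows came from RefSeq, GRCm38.p6.

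The members, the gene lists and the tests were chosen with earlier results of these data known. Genes named with values were those past the threshold, the 10 in each direction with the largest differences without overlap, those Present in 1 genotype only, the brightest of each group, and *Prm1*, *Prm2*, *Tnp1*, *Tnp2*, *Ddx4*, *Dazl*, *Sycp3*, *Dmc1*, *Mael* and *Tex19.1* whatever their values. *Brdt*, *Magea4*, *Magea5*, *Magea6*, the further *Rhox* genes and genes outside the families were named after their values were seen. Genotypes came from the labels, which give no batch, pairing or origin of the replicates beyond separate samples.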

Additional observations from a re-analysis of the deposited data

Results flagged for a closer look

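A probe set assigned to 2 genes was set aside because it names no single gene. Of the 2, 1 belongs to the *Xlr* family on the X chromosome. The probe set was called Present in G9aKO liver only. Its signals were 72.6 and 36.3 on the G9aKO arrays, both Present, against 26.6 and 29.4 on the WT arrays, both Absent. The mean in G9aKO liver was 54.43, and the genotypes did not overlap. All these signals lay in the range of Absent probe sets (95% of them up to 170 to 181), and the difference was not tested. Of all 18193 genes at their brightest probe set, 1.13% were Present on both G9aKO arrays and neither WT array. Probe sets shared by *Xlr3* genes and by *Xlr4* genes were Present on every array and overlapped. Their signals were 676 and 321 in G9aKO liver, against 398 and 75.7 in WT liver, and 335 and 63.2, against 113 and 107. Those shared by *Xlr5* genes were Absent on every array.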

How the results depend on the processing

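Of the 130 genes, 2 were higher in G9aKO liver as reported, against 1 with no detection filter (*Rhox5*), 0 with no mean-variance trend, 0 with the methods' Student test, and 0 to 2 when 1 array was left out in turn. Without WT replicate 1 or WT replicate 2 the 1 gene left was *Spaca1*, and without G9aKO replicate 1 none was left. These fits take the spread from the genotype that keeps 2 arrays and assume that the lone array varies like it. The cause was not tested. The number lower in G9aKO liver was 0 under all 13 alternatives. The log2 difference stayed between 4.76 and 6.75 for *Spaca1*, 2.60 and 2.96 for *Rhox5*, and -4.05 and -2.14 for *Hsf2bp*, each with the same direction throughout. Adjusted p for *Spaca1* was 0.0573 with no detection filter, and 0.167 for *Spaca1* and 0.114 for *Rhox5* with no mean-variance trend. With no trend and with the Student test, 0 of all genes passed. The median of the germline and testis genes ran from -0.06 to 0.08. At a detection p under 0.01, genes Present only in G9aKO liver numbered 1 and those Present only in WT liver 2, and 2 were Present only in WT liver at any probe set (*Hsf2bp* and *Spata3*). *Hsf5* changed sign, to -0.0769 after quantile normalization, -0.0525 after centring and -0.0515 to 0.0770 with 1 array left out, without being called. Signals under about 180 lay among those of Absent probe sets and have no firm order. No paired analysis was possible because the replicate numbers only follow the order of the samples and nothing in the labels ties them to a litter or batch.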
